A study of Drosophila melanogaster with 19 samples.

Results

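The genes described here build the apicobasal and planar axes of epithelial cells. Of 10 genes listed (baz, par-6, aPKC, l(2)gl, dlg1, scrib, cno, Vang, pk and stan), 9 were found through probe sets whose annotation names that gene and no other. They comprise 18 of the 18769 probe sets on the array, or 9 of 11982 genes with such a probe set. The gene pk had none and was not analysed here. RNA came from the notum, the bristle-bearing back of the thorax, of Drosophila melanogaster pupae aged 16 h after puparium formation. All animals carried sca-Gal4, which drives transgenes in the pattern of the scabrous gene, and tub-Gal80ts, a temperature-sensitive inhibitor of Gal4. Crosses were kept at 18 °C and moved to 29 °C for 6 h before dissection, so expression of the transgenes was transient. The control group carried UAS-GFPnls (GFP). Single-factor groups carried UAS-Ac (Ac, the proneural factor Achaete), UAS-Sens (Sens, the zinc finger factor Senseless), UAS-Ase (Ase, the factor Asense of sensory organ precursors) or UAS-E(spl)m3-HLH (m3, a transcriptional repressor). The last groups carried UAS-Ac with UAS-Sens (Ac+Sens) and UAS-Ase with UAS-E(spl)m3-HLH (Ase+m3). One array was made per pool of 8 to 12 notums, in which cells outside the driver's pattern are mixed with those inside it. Ac and Ase+m3 had 2 arrays and every other group 3, or 19 in all.

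In epithelial cells the Par complex of Bazooka, Par-6 and atypical protein kinase C marks the apical side, and the Scribble group of Lethal (2) giant larvae, Discs large and Scribble marks the lateral side. The core planar polarity proteins, among them Van Gogh, Prickle and Starry night, sort to opposite edges of each cell and align it with the axis of the tissue. The sensory organ precursor of the notum uses both systems when it divides asymmetrically along the body axis, which places fate determinants such as Numb in 1 daughter cell. Canoe, the fly Afadin, links adherens junctions to actin and takes part in orienting asymmetric divisions.

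Values are log2 signals, in which a difference of 1 is a doubling. Differences were tested with limma over all probe sets, and an adjusted p under 0.05 is called a change. A gene is described by its brightest probe set, and its other probe sets follow further on. On the replicate 3 arrays of Sens, Ase, m3 and Ac+Sens, 60.3% to 60.6% of probe sets are listed at exactly 0 and were taken as missing. The brightest probe sets of all 9 genes were measured on all 19 arrays. One array, Ase+m3 replicate 2, was unlike the rest: its Spearman correlations with the others had a median of 0.890, where every other array had 0.964 to 0.987. The sens signal was 7.38 on the array labelled Sens replicate 1, within the 7.15 to 7.55 of GFP, and 10.76 and 10.75 on the other Sens arrays. On that array sc, the proneural neighbour of ac, was at 10.63 against 7.17 and 6.84, so the array goes against its label. The sc signal was also high in Ac (10.37 to 10.42) and Ac+Sens (10.05 to 10.77), against 6.95 to 7.28 in GFP. The reason was not tested. The probe sets of ac (6.74 to 6.87 in Ac, 6.63 to 7.27 in GFP), ase (5.45 to 5.68 in Ase, 5.15 to 5.58 in GFP) and E(spl)m3-HLH (11.06 to 11.19 in m3, 11.03 to 11.08 in GFP) overlapped the control. The par-6 and l(2)gl probe sets and scrib 1629115_s_at carry a suffix that in the maker's naming marks probes able to match more than 1 transcript, so their signal can be shared.

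For none of the 9 genes did the brightest probe set change against GFP in any of the 6 groups. The exception lay within scrib, where 1 of 5 probe sets was 2.14-fold higher in Ase than in GFP and close to GFP when m3 was expressed with Ase. That rise rests on 2 Ase arrays. It lost its call without Ase replicate 2 and with the trend over gene length removed, a trend taken from other probe sets. In pooled tissue, fewer cells of a type and less RNA per cell cannot be told apart. The signals of scrib, cno and stan were lower in Ase+m3 than in Ase, largely through Ase+m3 replicate 2, on which long genes were low as a class. Among 33 other polarity, junction and precursor division genes measured, only spdo and meru were called against GFP. spdo rose in Ac+Sens and Ase and meru in Ac+Sens, and both act in the divisions of the precursor.

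Bazooka is the PDZ scaffold of the Par complex that recruits its other members. In replicate order, baz stood at 7.09, 7.12 and 7.65 on the GFP arrays, at 7.60 and 7.81 in Ac, at 7.61, 7.24 and 7.49 in Sens and at 7.73, 7.64 and 7.80 in Ase. It stood at 7.63, 7.56 and 7.84 in m3, at 8.29, 7.40 and 7.16 in Ac+Sens and at 7.33 and 6.04 in Ase+m3. The GFP arrays were mostly low, but GFP replicate 3 lay among the arrays of the other groups, and Ac+Sens covered the widest range apart from Ase+m3. The differences from GFP were 0.44 (SE 0.29, adjusted p = 0.521) in Ase, 0.42 in Ac and 0.39 in m3.

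Par-6 is the adaptor that binds the kinase. par-6 stood at 9.86, 9.57 and 9.88 in GFP, 9.87 and 9.88 in Ac, 9.81, 9.89 and 9.93 in Sens, and 9.83, 9.77 and 9.91 in Ase. The remaining arrays gave 9.82, 9.81 and 9.88 in m3, 9.73, 9.84 and 9.94 in Ac+Sens, and 9.74 and 9.68 in Ase+m3. It was the steadiest member, since its group means spanned only 0.17, from 9.71 ± 0.04 (SD, n = 2) in Ase+m3 to 9.88 ± 0.06 (SD, n = 3) in Sens, and all groups overlapped GFP. Its 95% confidence intervals against GFP stayed within −0.27 and 0.32 in all 6 groups.

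The kinase aPKC phosphorylates Lethal (2) giant larvae, Bazooka and Numb, which keeps them off the apical domain. aPKC stood at 9.05, 9.11 and 9.38 in GFP, 9.05 and 9.60 in Ac, 9.28, 9.56 and 9.59 in Sens, and 9.30, 9.38 and 9.54 in Ase. It reached 9.31, 9.37 and 9.58 in m3, 9.57, 9.52 and 9.39 in Ac+Sens, and 9.14 and 8.69 in Ase+m3. All 3 Ac+Sens arrays lay above the GFP arrays, with 9.39 against 9.38 for the closest pair. The difference of 0.31 (SE 0.15, adjusted p = 0.417, limma) did not pass the test, nor did the 0.29 of Sens.

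In the Scribble group, l(2)gl encodes the aPKC substrate that holds the Par complex away from the basolateral cortex. l(2)gl stood at 9.80, 9.57 and 9.86 in GFP, 9.77 and 9.96 in Ac, 9.73, 9.99 and 10.05 in Sens, and 9.75, 9.59 and 9.76 in Ase. It reached 9.85, 9.92 and 10.08 in m3, 10.07, 10.05 and 10.16 in Ac+Sens, and 9.91 and 9.55 in Ase+m3. The Ac+Sens arrays were the highest as a group and all lay above GFP, while Ase was the lowest group and overlapped GFP. The difference of Ac+Sens from GFP, 0.35 (SE 0.12, adjusted p = 0.201), was the largest of the 9 genes in that group. Without GFP replicate 2, the lowest control, it was 0.26 (adjusted p = 0.491).

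Discs large is a scaffold of the septate junction that also helps orient the spindle in the precursor. dlg1 stood at 8.94, 8.85 and 9.27 in GFP, 9.06 and 9.23 in Ac, 9.15, 9.01 and 9.26 in Sens, and 9.16, 9.18 and 9.22 in Ase. It stood at 9.27, 9.18 and 9.28 in m3, 9.0, 9.08 and 8.41 in Ac+Sens, and 9.08 and 6.92 in Ase+m3. Apart from Ac+Sens replicate 3 and Ase+m3 replicate 2, all arrays fell between 8.85 and 9.28, and each group overlapped GFP.

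Scribble is the leucine-rich repeat and PDZ scaffold of the group. scrib stood at 9.69, 9.47 and 9.86 in GFP, 9.73 and 9.74 in Ac, 9.81, 9.80 and 9.82 in Sens, and 10.11, 10.06 and 10.19 in Ase. It stood at 9.84, 9.94 and 9.99 in m3, 9.88, 9.98 and 9.32 in Ac+Sens, and 9.68 and 8.11 in Ase+m3. The 3 Ase arrays were the highest of all 19 and lay above every GFP array. Their mean of 10.12 ± 0.07 (SD, n = 3) exceeded the 9.67 ± 0.19 (SD, n = 3) of GFP by 0.45 (SE 0.27, adjusted p = 0.468), which did not pass the test. That SE pools the spread of all groups, Ase+m3 replicate 2 included. Without that array, which is in neither group compared, the difference was again 0.45, with an SE of 0.13.

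The same arrays led for cno, the Canoe gene. It stood at 6.07, 5.70 and 6.38 in GFP, 6.13 and 6.50 in Ac, 6.33, 6.29 and 6.28 in Sens, and 6.65, 6.52 and 6.63 in Ase. It stood at 6.43, 6.20 and 6.29 in m3, 6.51, 6.24 and 5.43 in Ac+Sens, and 5.95 and 4.57 in Ase+m3. The Ase arrays again lay above all GFP arrays, with a difference of 0.55 (SE 0.29, adjusted p = 0.41), and the low arrays were GFP replicate 2, Ac+Sens replicate 3 and Ase+m3 replicate 2. The difference was 0.37 (adjusted p = 0.762) without GFP replicate 2.

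For planar polarity, Van Gogh is a multi-pass membrane protein that partners Prickle on 1 edge of the cell. Vang stood at 9.81, 9.53 and 9.91 in GFP, 9.81 and 9.88 in Ac, 9.77, 9.97 and 10.10 in Sens, and 10.02, 9.82 and 10.09 in Ase. It stood at 9.86, 9.85 and 9.86 in m3, 10.18, 9.90 and 10.09 in Ac+Sens, and 9.81 and 9.44 in Ase+m3. Ac+Sens had the highest mean, 10.06 ± 0.15 (SD, n = 3), but overlapped GFP, and its difference of 0.31 (95% confidence interval 0.05 to 0.57, adjusted p = 0.309) was not called. Starry night, also known as Flamingo, is the atypical cadherin that joins the planar complexes of neighbouring cells. stan stood at 9.34, 8.92 and 9.29 in GFP, 9.23 and 9.25 in Ac, 9.31, 9.08 and 9.30 in Sens, and 9.45, 9.30 and 9.51 in Ase. It stood at 9.32, 9.36 and 9.38 in m3, 9.14, 9.25 and 9.01 in Ac+Sens, and 9.14 and 8.45 in Ase+m3. All groups overlapped GFP, and the group means without Ase+m3 replicate 2 spanned 0.29.

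**Figure D1:**
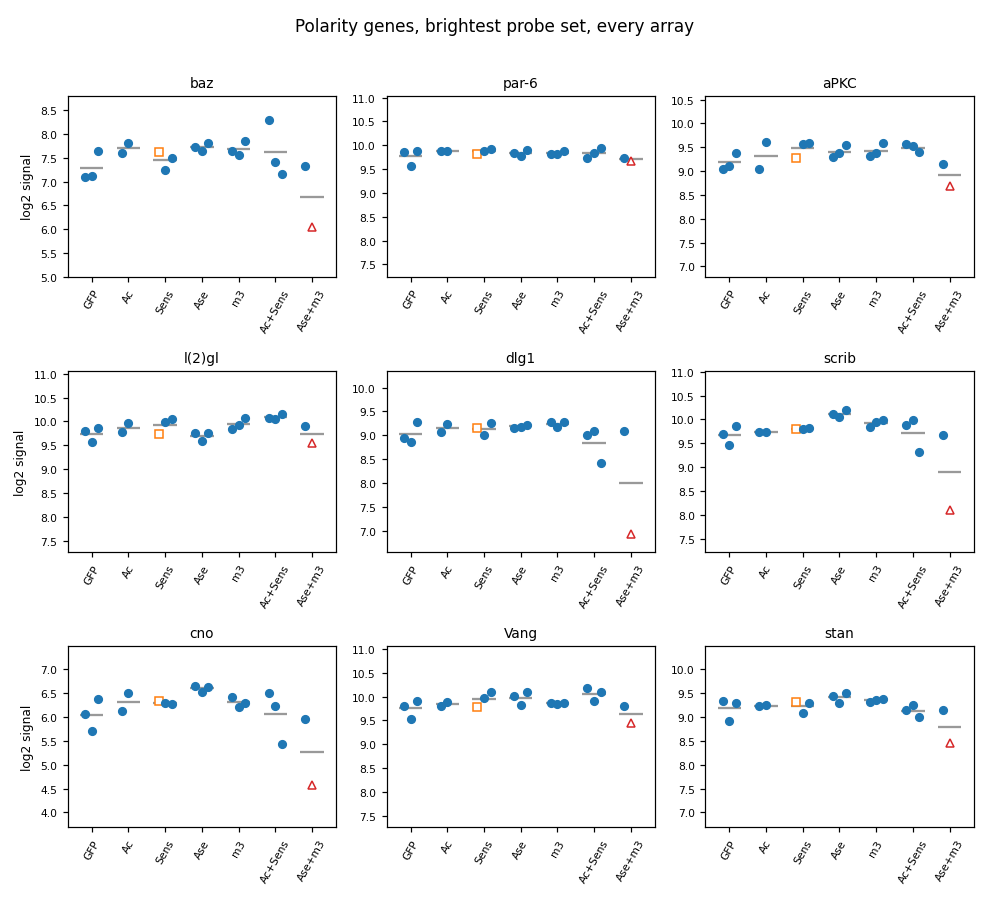
Log2 signal (vertical axis) of the brightest probe set of each gene on every array, by group (horizontal axis); circles are arrays, the triangle is Ase+m3 replicate 2, the square is the array labelled Sens replicate 1 and the grey line is the group mean. The levels of each gene lie close together across groups apart from the triangle, which is the lowest array for 8 of the 9 genes, and par-6 is the steadiest.

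Against GFP, none of the 9 genes changed in Ac, where 0.218% of all probe sets were called. The same count of 0 held in Sens (0.277% of all probe sets), Ase (1.24%), m3 (0.341%), Ac+Sens (0.773%) and Ase+m3 (2.31%). The moderated F test over the 7 groups also called 0 of 9 genes, against 3.62% of all probe sets, with the smallest adjusted p at 0.156 for cno. At an unadjusted p under 0.05 limma counted 0 of 9 genes in Ac, Sens, Ase and m3, 2 in Ac+Sens (l(2)gl and Vang), 4 in Ase+m3 and 5 in the F test. No share of all probe sets was counted at that unadjusted threshold, so these counts have no background beside them. They also depend on the pooled spread, to which Ase+m3 replicate 2 adds in every comparison. Beside the shares at an adjusted p under 0.05, 0 calls in 9 genes lies near the background. Without the array labelled Sens replicate 1 the count in Sens was again 0, with a median difference of 0.14. When limma's array weights let arrays far from their group count less, 3 of 9 genes were called higher in Ase (baz, scrib and cno). In that setting 14.2% of all probe sets were called, in either direction.

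The size of the differences was better bounded than their sign. The 95% confidence intervals stayed within a doubling or halving, that is −1 to 1, for 8 of 9 genes in Ac, 9 in Sens, 6 in Ase, 8 in m3, 9 in Ac+Sens and 5 in Ase+m3. Within the narrower band of −0.5 to 0.5 lay 4 genes in Ac, Sens and m3 each, 3 in Ase and Ase+m3 and 2 in Ac+Sens. The wide intervals belonged to dlg1, baz, cno and scrib, whose arrays scattered most. These genes also lay lowest on Ase+m3 replicate 2, and the spread is pooled, so that array widened the intervals of the other groups too. Without it the SE of Ase against GFP was smaller, at 0.15 for dlg1, 0.22 for baz, 0.21 for cno and 0.13 for scrib.

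**Figure D2:**
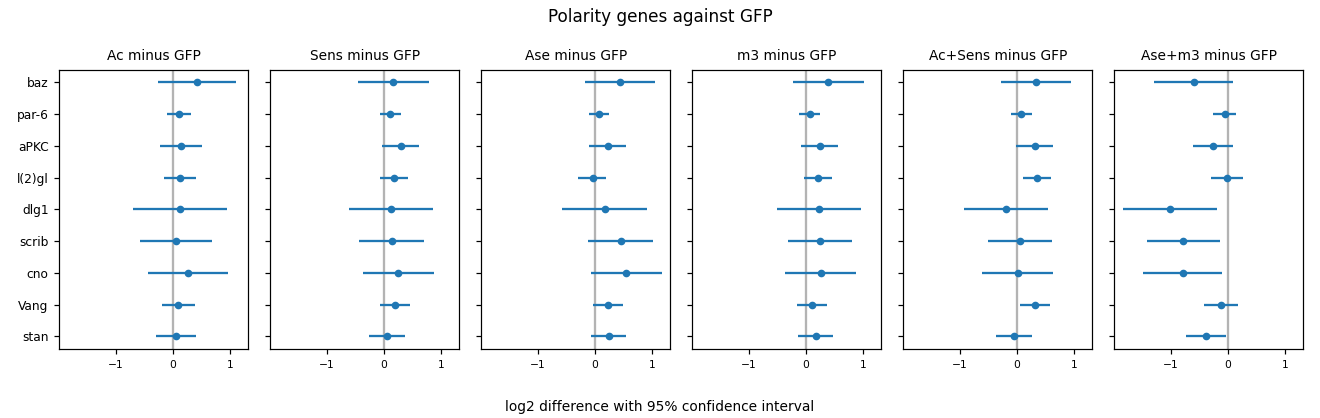
Log2 difference from GFP (horizontal axis) of the brightest probe set of each gene (vertical axis) in the 6 groups, 1 panel per group; points are limma estimates and bars 95% confidence intervals. In the first 5 panels most points lie slightly right of 0 with intervals that cross it, and in the Ase+m3 panel all 9 points lie left of 0, dlg1 furthest at −1.02.

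Small positive differences prevailed in the single-factor groups. The median over the 9 genes was 0.13 in Ac (9 of 9 positive), 0.16 in Sens (9), 0.23 in Ase (8) and 0.22 in m3 (9), beside medians of 0.03, 0.05, 0.08 and 0.05 over all probe sets. These comparisons share the same 3 GFP arrays. On GFP replicate 2 the 9 genes lay a median of 0.33 below the median array (from −0.58 to −0.27), and the 218 genes with a span of at least 40 kb lay at −0.34. Without that array the medians were 0.04 in Ac (6 of 9 positive), 0.08 in Sens (8), 0.12 in Ase (7) and 0.12 in m3 (7). The sizes thus depended on 1 control array.

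Groups that do not overlap were counted as well. In Ase, scrib and cno lay above all GFP arrays, 2 of 9 genes where 28.7% of the 7284 probe sets measured on all arrays did so. In Ac+Sens, aPKC and l(2)gl did, 2 of 9 where 7.65% did so. In Ac, Sens, m3 and Ase+m3, 0 of 9 genes were separate from GFP in either direction, where 11.8%, 12.0%, 22.5% and 9.53% of those probe sets were higher and 10.5%, 2.65%, 3.03% and 10.3% lower. Lower genes numbered 0 in Ase and Ac+Sens too, beside 5.01% and 5.75%. The Ase share lies near its background. On the Ase arrays the long genes stood at 0.12, 0.02 and 0.14 relative to the median array, and with the trend over gene length removed from each array the Ase differences were 0.20 for scrib (adjusted p = 0.586) and 0.31 for cno (adjusted p = 0.569).

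The clearest difference was found in a second view of scrib. Probe set 1639402_a_at, 1 of 5 for this gene, stood at 5.45 and 5.64 on Ase replicates 1 and 2 and is listed at 0 on Ase replicate 3. It stood at 4.31, 4.44 and 4.58 in GFP, 4.3 and 4.14 in Ac, 4.40 and 4.71 in Sens, 4.53 and 4.12 in m3, 4.48 and 4.13 in Ac+Sens, and 4.28 and 4.37 in Ase+m3. Both Ase arrays exceeded every other array with a value, the highest of which was 4.71, and the other groups overlapped GFP or each other. Ase averaged 5.54 ± 0.13 (SD, n = 2) against 4.45 ± 0.13 (SD, n = 3) in GFP, a rise of 1.10 (SE 0.15, 95% confidence interval 0.76 to 1.43, adjusted p = 0.0044). Among the 18 probe sets it was the only one called against GFP in any group with all arrays in the model, and 1.0% of all probe sets were called higher in Ase.

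When m3 was expressed together with Ase, this signal was lower than in Ase alone by a log2 difference of −1.22 (SE 0.17, adjusted p = 0.00903). It then stood −0.12 from GFP (95% confidence interval −0.46 to 0.22) and 0.00 from m3. Without Ase+m3 replicate 2 the difference from Ase was −1.26 (adjusted p = 0.0118), and without Ase replicate 2 it was −1.12 (adjusted p = 0.0585). It also lost its call with the length trend removed (−0.50, adjusted p = 0.342). On Ase+m3 replicate 2, however, this probe set lay at −0.06 from the median of the other arrays. It thus lacked the fall of long genes that the trend takes out there, and removing the trend cannot decide whether the difference holds. With array weights the difference was −1.18 (adjusted p = 0.777), but both Ase+m3 arrays then had a weight of 0.1, the lowest of all. That setting could therefore hardly call any difference of Ase+m3. The rise over GFP rests on 2 arrays, and without Ase replicate 2 it was 1.0 with an adjusted p of 0.0659. With the length trend removed it was 0.87 (SE 0.29, adjusted p = 0.307), where the trend came from probe sets measured on all arrays, which this one was not.

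The other scrib probe sets were set beside it. Probe set 1632164_at stood at 5.80 and 5.67 in Ase, above the 5.32, 5.26 and 5.26 of GFP and above all other arrays with a value, which ranged up to 5.52. Its difference from GFP was 0.45 (SE 0.13, adjusted p = 0.134), and it was lower in Ase+m3 than in Ase by a log2 difference of −0.55 (SE 0.14, adjusted p = 0.0481). That second call was lost when most single arrays were left out. With the length trend removed the difference was 0.17 (adjusted p = 0.786). On Ase+m3 replicate 2 this probe set lay at 0.11 from the median of the other arrays, without the fall of long genes. The trend removed there came from probe sets measured on all arrays, so that setting cannot decide the direction. Probe set 1629115_s_at differed by 0.22 between Ase and GFP (adjusted p = 0.744) and 1635642_at by −0.05 (adjusted p = 0.918). The sources used here do not say which exons or transcripts of scrib each probe set reads, and signals of different probe sets cannot be set against each other.

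**Figure D3:**
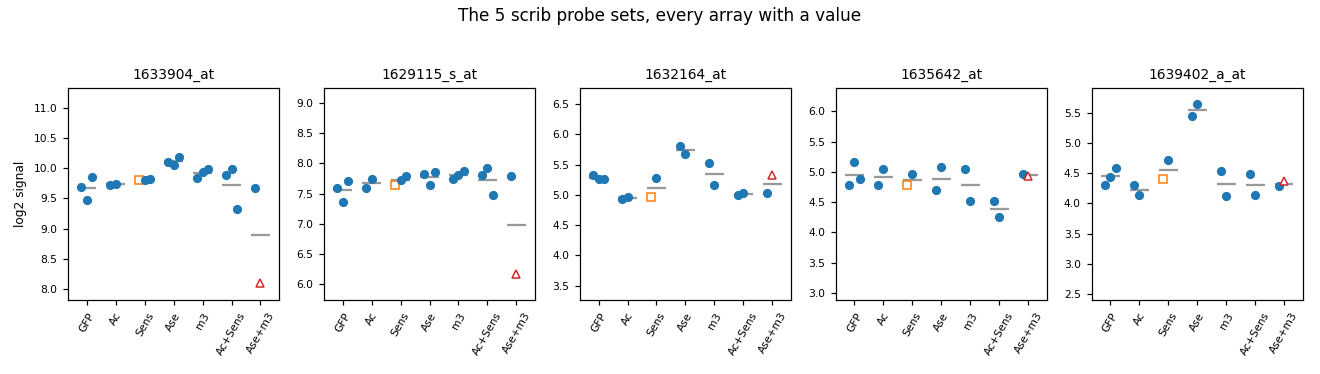
Log2 signal (vertical axis) of the 5 scrib probe sets on every array with a value, by group (horizontal axis); circles are arrays, the triangle is Ase+m3 replicate 2, the square is the array labelled Sens replicate 1 and the grey line is the group mean. In the last panel the Ase arrays stand at 5.45 and 5.64 and all others at or below 4.71, and the triangle is low only for 1633904_at and 1629115_s_at.

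The remaining probe sets of the other members were dim. Those of dlg1 (3 probe sets), cno (1) and aPKC (1) were measured on 15 or 16 arrays. The second cno probe set, 1633156_at, stood at 3.70 and 3.81 in Ase and 3.89 and 3.63 in Ac+Sens against 3.27, 3.36 and 3.28 in GFP. Both groups lay above GFP, by 0.45 (SE 0.11, adjusted p = 0.0702) and 0.46 (adjusted p = 0.0878), and neither passed the test. For dlg1, 1627882_at was low on a single array, Ase+m3 replicate 1, at 4.98, while all other arrays lay between 5.60 and 6.23, Ase+m3 replicate 2 included at 5.91. When Ase+m3 replicate 2 was left out, that probe set was called lower in Ase+m3 than in GFP (−0.83, adjusted p = 0.0213), with that 1 array standing for the group.

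Both pairs of factors were also compared with their single factors. In Ac+Sens, 0 of 9 genes changed against Ac (0.0799% of all probe sets called) and 0 of 9 against Sens (0.0533%), with 0 genes at an unadjusted p under 0.05 in both. The largest differences were in dlg1, −0.32 and −0.31, for which Ac+Sens replicate 3 was the low array, and l(2)gl was at 0.23 and 0.17. Leaving out the array labelled Sens replicate 1 changed no call against Sens.

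In Ase+m3, 3 of 9 genes were lower than in Ase, where 5.6% of all probe sets were called and 4.3% lower. Those shares include probe sets that were not measured on all arrays, as the 9 genes were. Tested alone, the probe sets measured on all arrays were called at a larger share, given at the end. cno was lower by a log2 difference of −1.34 (SE 0.33, adjusted p = 0.0365), scrib by −1.22 (SE 0.30, adjusted p = 0.0362) and stan by −0.63 (SE 0.16, adjusted p = 0.0414). Against m3, 0 of 9 genes were called (6.56% of all probe sets), and the smallest adjusted p was 0.0508 for scrib. An unadjusted p under 0.05 held for 6 of 9, with no share of all probe sets counted beside it. The median of the 9 genes was −0.63 against Ase and −0.56 against m3, beside 0.01 and 0.04 over all probe sets.

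The 2 Ase+m3 arrays differed widely. On replicate 2, 8 of 9 genes (all but par-6) were lower than on any of the other 18 arrays, where 37.5% of the probe sets measured on all arrays were. Relative to the median of the other arrays, dlg1 was at −2.23, scrib and cno at −1.72 each and baz at −1.56. The deviation was −0.85 for stan, −0.69 for aPKC, −0.43 for Vang, −0.33 for l(2)gl and −0.17 for par-6. The low genes were the long ones by the span of the transcription unit in RefSeq, namely scrib (67.7 kb), stan (47.8 kb), cno (47.5 kb), baz (40.7 kb) and dlg1 (40.1 kb). The short ones, aPKC (18.5 kb), l(2)gl (11.5 kb), par-6 (3.7 kb) and Vang (3.6 kb), deviated least. Across these 9 genes, which share the array, the Spearman correlation of deviation with span was −0.72, and across 6088 genes measured on all arrays it was −0.687. The 218 genes of at least 40 kb had a median of −1.19.

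Within the same gene, the fall on this array was not shared by the dim probe sets. For scrib, 1629115_s_at was also low there, at −1.57, but the 3 dim ones were between −0.06 and 0.11. The dim probe sets of dlg1, cno and aPKC deviated by −0.04 to 0.22.

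**Figure D4:**
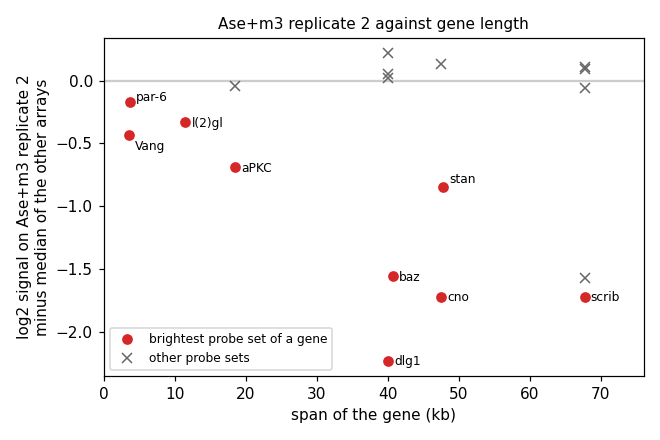
Log2 signal on Ase+m3 replicate 2 minus the median of the other arrays (vertical axis) against the span of the gene in kb (horizontal axis); red points are the brightest probe set of each gene and crosses the other probe sets. Points for genes of 40 kb and more lie between −0.85 and −2.23 and points for shorter genes at −0.69 or above, while all crosses but 1 lie near 0.

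Without Ase+m3 replicate 2, the 1 remaining array gave differences from GFP between −0.10 and 0.16 for the 9 genes, with a median of 0.01. No gene was then called against GFP, Ase or m3, where 6.8%, 3.44% and 6.04% of all probe sets were, and the lone array was assumed to vary like the other groups. With replicate 1 left out in its place, 5 of 9 genes were called against GFP, 7 against Ase and 6 against m3, where 15.5%, 18.3% and 17.5% of all probe sets were. With replicate 2 left out and replicate 1 kept, the differences from Ase were −0.65 for cno, −0.44 for scrib and −0.28 for stan. With both arrays kept and the length trend removed, cno was at −0.66 (adjusted p = 0.0426) and scrib at −0.48 (adjusted p = 0.0336), both still called, and stan at 0.05 (adjusted p = 0.787). For cno and scrib, these 2 ways of treating the array gave nearly the same size, smaller than with the array as deposited. The 3 calls against Ase were also lost without any 1 of the Ase arrays, without Sens replicate 2 and without m3 replicate 1 or 2. They were lost too with quantile normalization and with array weights, which left both Ase+m3 arrays a weight of only 0.1. Without the array labelled Sens replicate 1, scrib and cno stayed called (adjusted p = 0.0496 each, limma) and stan did not (adjusted p = 0.0549).

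A wider list of 44 polarity, junction and precursor division genes, of which 33 had a single-gene probe set, was counted in the same way. It gave 0 calls in Ac, Sens, m3 and Ase+m3 against GFP, 1 of 33 higher in Ase (spdo), where 1.24% of all probe sets were called, and 2 of 33 higher in Ac+Sens (spdo and meru), where 0.773% were, with 0 lower in all 6. Both belong to the 10 genes for precursor polarity and spindle orientation. The other 8 of these, such as the adaptors insc and pins (0.53 and 0.27 in Ac+Sens, adjusted p = 0.403 and 0.217) and the Notch inhibitor numb (0.36 in Ase, adjusted p = 0.0524), were not called against GFP.

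Sanpodo is the membrane protein through which Notch is activated in 1 daughter of the precursor. spdo stood at 5.76, 5.64 and 5.64 in GFP, 6.22 and 6.03 in Ac, 6.21, 6.22 and 5.83 in Sens, and 6.45, 6.14 and 6.31 in Ase. It stood at 5.75, 5.73 and 5.77 in m3, 7.08, 6.92 and 7.03 in Ac+Sens, and 5.88 and 5.56 in Ase+m3. The Ac+Sens arrays were above all others, and Ac, Sens and Ase lay between them and GFP without overlap with either. The rise was 1.33 (SE 0.12, adjusted p = 1.18e-05) in Ac+Sens and 0.62 (SE 0.12, adjusted p = 0.0136) in Ase. Ac+Sens also exceeded Ac by 0.88 (adjusted p = 0.0169) and Sens by 0.92 (adjusted p = 0.0031). The Ase rise lost its call without GFP replicate 2 (0.60, adjusted p = 0.0692) or Ase replicate 1 (0.54, adjusted p = 0.101).

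Meru is the RASSF family protein that, in the precursor, links planar polarity to the position of the Par complex. meru stood at 7.17, 6.92 and 6.64 in GFP, 6.96 and 6.90 in Ac, 7.01, 7.66 and 7.42 in Sens, and 7.43, 7.64 and 7.62 in Ase. It stood at 6.80, 6.43 and 6.28 in m3, 8.03, 7.92 and 8.43 in Ac+Sens, and 6.26 and 6.73 in Ase+m3. The Ac+Sens arrays were the highest and the m3 and Ase+m3 groups had the lowest means, with Ase above GFP on all arrays. It rose by 1.21 (SE 0.19, adjusted p = 0.00633) in Ac+Sens. The 0.65 of Ase (adjusted p = 0.115) did not pass, and Ase+m3 was lower than Ase by a log2 difference of −1.07 (SE 0.21, adjusted p = 0.022), a call that held without Ase+m3 replicate 2 (−1.30, adjusted p = 0.0143).

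**Figure D5:**
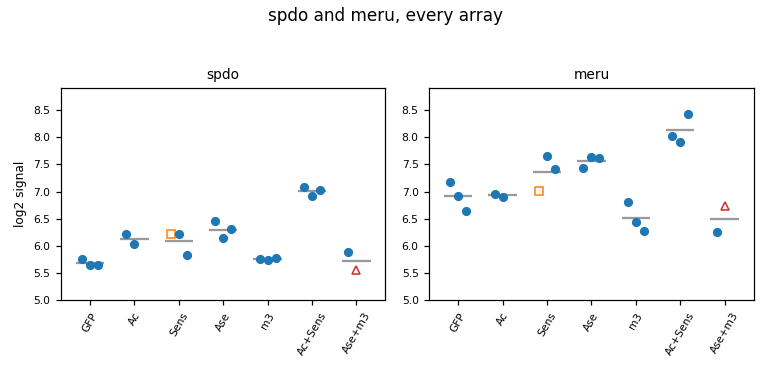
Log2 signal (vertical axis) of spdo and meru on every array, by group (horizontal axis); circles are arrays, the triangle is Ase+m3 replicate 2, the square is the array labelled Sens replicate 1 and the grey line is the group mean. The Ac+Sens arrays lie at 6.92 to 7.08 for spdo and 7.92 to 8.43 for meru, above all other arrays.

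Between Ase+m3 and Ase, 8 of 33 genes of the wider list were lower and 0 higher, where 4.3% of all probe sets were lower, among them the apical determinant crb (−0.82, adjusted p = 0.0228) and the cadherin gene shg (−0.74, adjusted p = 0.0352). Against m3, 7 of 33 were lower and 0 higher, where 4.03% of all probe sets were lower. Without Ase+m3 replicate 2 these counts were 1 (meru) and 1 (fj, a kinase gene of the planar system), where 3.44% and 6.04% of all probe sets were called, with medians over the list of −0.30 and −0.23.

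Genes with a pattern most like cno and scrib, the members with the smallest F test p, were looked up over the 7 group means without Ase+m3 replicate 2, among 1136 probe sets whose means spanned at least 0.5. For cno these were Ppa (Pearson r = 0.984), babo (0.974) and row (0.973). For scrib they were pippin (0.983), CG34398 (0.975) and CG3253 (0.963). With 7 points and shared arrays these values are descriptive.

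Markers of the tissue and of other cell types were compared alongside. Of 8 epidermal markers, 7 had a probe set and all 7 were measured on all arrays, with summed linear signals of 2569 to 2995 in GFP, 2750 to 2818 in Ase, 2555 to 2990 in Ac+Sens and 1932 to 2284 in Ase+m3. Of these, crb and shg were lower in Ase+m3 than in Ase, beside scrib, cno and stan. So were 1 of 5 muscle markers (htl), 1 of 4 neuronal markers (elav) and 1 of 5 glial markers (loco), with list medians of −0.31, −0.67 and −0.61 against −0.43 for the epidermal list. In this comparison 4.3% of all probe sets were called lower, and it includes Ase+m3 replicate 2, on which long genes were low. Among these markers crb, shg and loco are also on the wider list, where only meru kept its call without that array. Of 6 haemocyte markers, 1 rose in Ase, NimC1 by 0.86 (SE 0.15, adjusted p = 0.0145), and 1 in Ac+Sens, NimC1 again by 0.91 (adjusted p = 0.00721). In Ase, Hml was at 0.0, eater at 0.07, Col4a1 at 0.2, Pxn at 0.32 and srp at 0.65, none of them called. The scrib probe set 1639402_a_at rose in Ase and averaged 4.3 in Ac+Sens against 4.45 in GFP. The 3 haemocyte markers measured on all arrays summed to 265 to 319 in GFP, 357 to 424 in Ase and 263 to 651 in Ac+Sens, and eater, Hml and NimC1 are listed at 0 on some arrays. Muscle, fat body, tracheal, neuronal and glial markers gave 0 calls in Ase and Ac+Sens against GFP. The part of blood cells in the scrib signal was not tested.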

How the data were processed

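The authors deposited a log2 signal for each probe set, made with RMA (background correction, quantile normalization and probe summary), per the submitters' processing notes, with no version given. Per the labels, biotinylated cDNA was made from 500 ng of total RNA, and replicates are biological, so p-values measure the spread between pools of notums. Exact zeros, whose rule is unknown, were treated as missing. Groups came from the sample titles. Of the probe sets, 13647 name 1 gene in the platform annotation, 402 several and 4720 none here, and only the first kind was used. RefSeq gave gene spans (Release 6 table, names and spans only).

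The model was fitted in R 4.3.3 with the limma package, version 3.58.1 (lmFit, contrasts.fit and eBayes), with 1 mean per group, all 19 arrays, no covariate and no filter. P-values are two-sided, with Benjamini-Hochberg adjustment over all 18769 probe sets of a comparison, and every adjusted p printed comes from this kind of model. A gene's brightest probe set was chosen by its mean over those 15 arrays that hold no zero. The script was tested on simulated data. The members, the wider list, the markers and the tests were chosen with earlier results of these data known. Named genes were all members, wider-list genes called against GFP (smallest adjusted p first, at most 6), and the 3 most similar patterns to 2 members; insc, pins, numb, crb, shg, fj, NimC1, htl, elav and loco were named after their values were seen. Alternatives were the probe sets measured on all arrays, quantile normalization, removal of the trend over gene length, replicate number as a block, array weights, the mean of a gene's probe sets, and each array left out. No scan date or detection call was used, so batches and background were not tested, and depth is given only by the number of arrays.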

Additional observations from a re-analysis of the deposited data

How the results depend on the processing

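The counts of polarity genes called were recomputed under each alternative. Against GFP they stayed at 0 of 9 in Ac, Sens, m3 and Ac+Sens under all of them. In Ase the count was 3 with array weights (baz, scrib and cno), where 14.2% of all probe sets were called, and 0 otherwise. In Ase+m3 it went from 0 to 5 when each array was left out in turn. The F test called 3 genes with array weights and 0 to 5 over left-out arrays. For Ase+m3 against Ase (3 called), the count was 5 over only the probe sets measured on all arrays (20.4% of these called), and 0 with quantile normalization, with array weights, without both Ase+m3 replicate 2 and the array labelled Sens replicate 1, and with the length trend removed without Ase+m3 replicate 2 too, the last 2 chosen after seeing the data. Over left-out arrays it ran from 0 to 7, with 0 without Sens replicate 2, any Ase array, m3 replicate 1 or 2, or Ase+m3 replicate 2. Against m3 (0 called) it was 4 over the probe sets measured on all arrays (15.9% called), 1 with the mean of probe sets and 0 to 6 over left-out arrays. The highest counts, 5, 5, 7 and 6, were without Ase+m3 replicate 1, where 15.5%, 20.1%, 18.3% and 17.5% of all probe sets were called. Removing the length trend turned 2 differences of Ase+m3 from Ase, stan to 0.05 and scrib 1632164_at to 0.17. The latter probe set was not low on Ase+m3 replicate 2 (0.11 from the median of the other arrays), so the trend removed there was not its own. The scrib 1639402_a_at rise in Ase kept its sign throughout (0.87 to 1.19). Causes were not tested.

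Same-numbered arrays of different groups had deviations that correlated between −0.425 and 0.547 (52 pairs, median −0.003). For arrays of different number the range was −0.711 to 0.711 (102 pairs, median 0.007). Deviations within groups of 2 or 3 arrays are tied to each other, so these values cannot decide whether the numbers mark a batch. The exact zeros lie only on replicate 3 arrays. With replicate number as a block, 2 of 9 genes were called in Ase+m3 against Ase and 0 in every other comparison, and calls over all probe sets went from 1051 to 507 (against m3 from 1231 to 381, and in Ase+m3 against GFP from 433 to 152). Calls over all probe sets in Ase against GFP went from 233 to 2659 with array weights, 118 over the probe sets measured on all arrays and 107 with the length trend removed. In Ase+m3 against Ase they were 329 with quantile normalization, 565 with the length trend removed and 2 with array weights. Those weights were 0.1 for both Ase+m3 arrays, the lowest of all, so that setting could hardly call this group. Groups of 2 or 3 arrays limit the precision.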
